A study of Oryza sativa Japonica Group with 4 samples.

Results

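CG-only methylated regions are stretches of the rice genome in which CG cytosines were highly methylated while CHG cytosines (H = A, C or T) were nearly free of methylation. Their members were chosen from the measured levels. A member is a CG hypo-DMR (a region with less CG methylation after zebularine treatment) with a CG level of at least 0.8 in the DMSO control and of more than 0.5 times that value after treatment, which also shares at least 1 base with a CHG hyper-DMR (a region with more CHG methylation after M.CviP I treatment) whose level in the CK DNA was below 0.05. This gave 16920 members, 9.29% of the 182125 CG hypo-DMRs and 9.60% of the 176284 CG hypo-DMRs within the CG limits. The levels are a fraction from 0 to 1, the mean over the tested cytosines of a region in 1 library.

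Bisulfite sequencing (BS-seq), which reads methylated cytosines as C and the others as T, was applied to 4 libraries of Nipponbare rice DNA. The zebularine library came from seedlings that were 5 days old at the start, of which 100 were treated with 80 μM zebularine in DMSO for 5 days, and its control from as many seedlings that received DMSO only. The M.CviP I library came from 4 μg of purified genomic DNA incubated with 8 units of enzyme and 640 μM SAM at 37°C for 1 h, and its control was untreated CK DNA. Each condition has 1 library of pooled whole seedlings or DNA, so the comparisons have no replicate check, no test between conditions is given, and the medians and shares below describe these libraries. Read depth is not part of the lists, so the depth of each region and the counting error of its level are unknown. The CG limits of the rule come from the zebularine pair and the CHG limit from the M.CviP I pair, whose CK DNA is a different library from the DMSO control. The labels do not say which seedlings gave the CK DNA, and the growth notes name seedlings older than those of the zebularine pair, so that age and handling may differ between the 2 controls that the rule combines.

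In plants, CG methylation is copied after replication by MET1, the homologue of animal DNMT1, which restores the mark at the symmetrical CG site of the new strand. CHG methylation is kept by CMT3 together with histone H3K9 methylation, and CHH methylation is set anew by CMT2 and by DRM2 of the RNA-directed pathway. Transposons usually carry all these marks, whereas the transcribed part of a subset of genes carries CG methylation alone, known as gene body methylation. Zebularine is a cytidine analogue that inhibits DNA methyltransferases, and M.CviP I is a viral enzyme known to methylate cytosines that follow a G. Positions relative to genes were not analysed here, so whether the members lie in gene bodies was not tested and they are named by their methylation only.

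The CG levels used for the choice were a median of 0.728 after zebularine treatment and 0.942 in the DMSO control over the 16920 members, with quartiles of 0.668 and 0.778 after treatment and of 0.913 and 0.960 in the control. Zebularine minus DMSO, the members' median was -0.205 (quartiles -0.253 and -0.165), and they kept a median of 78.0% of their control level. A loss of at least 0.2 was found in 53.3% of the members, against a background of 24.8% of all CG hypo-DMRs, a contrast that the choice itself used. Over the same members, the CHG hyper-DMRs had a median level of 0.611 in the M.CviP I library and 0.0106 in the CK DNA. The low CHG level of the CK DNA is fixed by the rule. The CHG hyper-DMRs of low CK level covered a median of 81.5% of a member, and 383 members also touched a CHG region with a control level of at least 0.05.

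Few members lay near the CG limits. The number of members also changed with the CHG limit and with the overlap asked for. In the DMSO control 891 members had a CG level under 0.85, and 429 had a level after zebularine treatment under 0.6 of the control. With a CHG limit of 0.02 in place of 0.05, 13661 members would remain, and with a limit of 0.1 there would be 18364. If the CHG hyper-DMRs of low CK level had to cover at least 50% of the region, 12814 would remain. At the control limit, the region on chromosome 1 from 4770404 to 4770506 was taken with levels of 0.616 after zebularine and 0.8 in DMSO, whereas that on chromosome 3 from 4947188 to 4947486 was left out with 0.618 after zebularine and 0.7996 in DMSO. At the limit on the level kept, the region on chromosome 6 from 5579190 to 5579293 was taken with 0.472 after zebularine and 0.943 in DMSO, and that on chromosome 12 from 10862941 to 10863067 was left out with 0.403 after zebularine and 0.808 in DMSO. At the CHG limit, the lowest CHG level in the CK DNA was 0.0497 for the region taken on chromosome 4 from 4972779 to 4973126 and 0.05 for the region left out on chromosome 1 from 647600 to 647871.

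To see where the members differ from regions methylated in both contexts, they were set beside 18087 CG and CHG methylated regions. These are CG hypo-DMRs within the same CG limits that share a base with a CHG region of either list with a control level of at least 0.5 and with no CHG hyper-DMR of CK level below 0.05. A further 12943 regions had an intermediate CHG level, and 128334 shared no base with any listed CHG region, so that their CHG level is unknown. CHH levels, which the rule did not use, were low over the members before M.CviP I treatment. They come from the same CK DNA as the CHG limit, and the CG and CHG methylated regions were chosen for a high CHG level. The CHH level is therefore not independent of the choice, and how much of the contrast follows from it was not tested. CHH hyper-DMRs overlapped 16890 members (99.8%, exact 95% binomial interval 99.7% to 99.9%), against a background of 96.5% of all CG hypo-DMRs. This share is near the background and says little, whereas the CHH levels differed between the sets. Regions of low CHG level that touch no member were not compared, so whether a low CHH level is particular to the members was not tested. The median CHH level over the members was 0.606 in the M.CviP I library and 0.0098 in the CK DNA, against 0.495 in the M.CviP I library and 0.0509 in the CK DNA over the CG and CHG methylated regions. Over the regions of intermediate CHG level the median in the CK DNA was 0.0372. The mean CHH level in the CK DNA was under 0.05 in 97.4% of the members, compared with a background of 50.1% of all CG hypo-DMRs and with 47.3% of the CG and CHG methylated regions. It was under 0.02 in 89.9% of the members with a CHH hyper-DMR and in 3.17% of the CG and CHG methylated regions. The members' median was the lower on 12 of 12 chromosomes, with 0.0096 to 0.01 in the members and 0.0463 to 0.0584 in the CG and CHG methylated regions. These levels come only from regions that gained at least 0.1 in CHH, and a CHH hyper-DMR can reach beyond the member it touches.

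**Figure D1:**
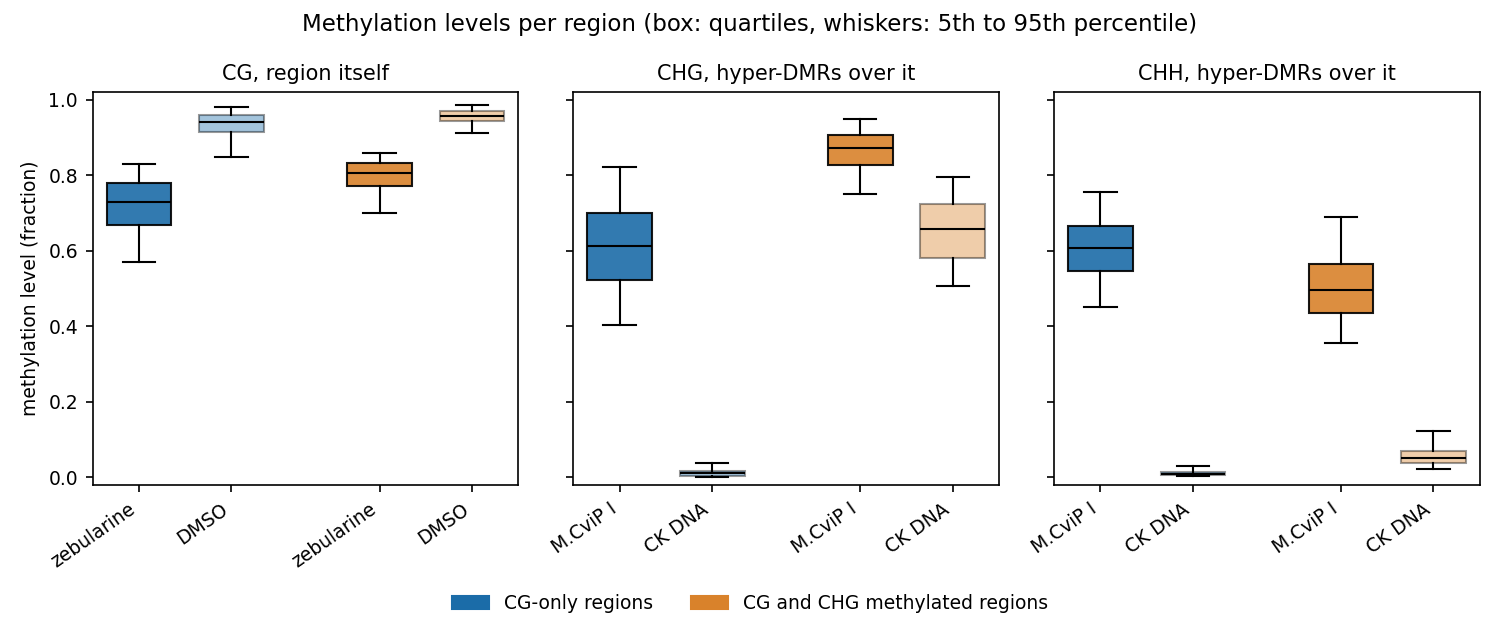
Methylation level (fraction, y axis) in the treated library and its control for CG-only regions (blue) and for CG and CHG methylated regions (orange), in the CG, CHG and CHH contexts. Boxes show the median and quartiles over regions and whiskers the 5th and 95th percentiles. The CHH level in CK DNA has a median of 0.0098 over CG-only regions and 0.0509 over CG and CHG methylated regions.

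CHH gains after M.CviP I treatment were larger over the members, with a median of 0.596 and quartiles of 0.532 and 0.655, against 0.437 with quartiles of 0.370 and 0.511 over the CG and CHG methylated regions. A gain of at least 0.5 was found over 83.7% of the members, against a background of 26.4% of all CG hypo-DMRs and 27.7% of the CG and CHG methylated regions. By the rule, 100% of the members touched a CHG hyper-DMR of the same enzyme reaction. That share was 26.8% of all CG hypo-DMRs and 86.1% of the CG and CHG methylated regions. The CHH gain is therefore not independent of the choice, and how much of the contrast follows from it was not tested. The members' median gain was the higher on 12 of 12 chromosomes. At equal CHH level in the CK DNA the order was mixed, with the members higher in 2 of 5 classes and lower in 3. Where that level was 0.01 to 0.02, the median gain was 0.587 over 6507 members and 0.582 over 475 CG and CHG methylated regions. Where it was 0.02 to 0.05, the values were 0.519 over 1300 members and 0.467 over 7991 CG and CHG methylated regions. Under 0.01 the order was turned, with 0.617 over 8671 members and 0.715 over 90 CG and CHG methylated regions, and from 0.05 to 0.1 it was 0.395 over 263 members and 0.415 over 7554 CG and CHG methylated regions. At 0.1 or more it was 0.299 over 149 members and 0.330 over 1695 CG and CHG methylated regions. In both sets the gain was smaller where the CK level was higher.

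The extremes were picked among the 6753 members with a CHH hyper-DMR and at least 15 CG cytosines. The largest CHH gain lay on chromosome 6 from 2232421 to 2232681, with a CHH level of 1 in the M.CviP I library and 0 in the CK DNA. The CG level there was 0.530 after zebularine and 0.855 in DMSO over 24 cytosines. On chromosome 8 from 11893012 to 11893320 the CHH level was 0.988 after M.CviP I and 0 in CK DNA, and the CG level 0.837 after zebularine and 0.984 in DMSO. The smallest gain was 0.118 on chromosome 1 from 6802938 to 6803303, where the CHH level was 0.548 after M.CviP I and 0.4295 in CK DNA, although the CHG level in CK DNA was 0.0438. A second member of this kind, on chromosome 10 from 11668048 to 11668363, had a CHH level of 0.485 after M.CviP I and 0.366 in CK DNA, beside CHG levels of 0.837 after M.CviP I and 0.0183 in CK DNA. The CG level is from the DMSO control, and the CHG and CHH regions need share only 1 base with the member. Whether the same stretch carries all these levels was not tested. Taken by the listed levels, these members combine methylated CG and CHH with nearly unmethylated CHG and go against the name CG-only. They are few, since 412 members (2.44% of those with a CHH hyper-DMR) had a CHH level of at least 0.05 in CK DNA, and 30 members had no CHH hyper-DMR at all.

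CG losses were larger in the members than in the CG and CHG methylated regions. The median CG level was 0.728 after zebularine and 0.942 in DMSO in the members, compared with 0.806 after zebularine and 0.957 in DMSO in the CG and CHG methylated regions, whose median difference was -0.148. As the choice used this contrast and asked for a loss in both sets, these values are a description. The regions of intermediate CHG level lay between them, with a median difference of -0.169, and the regions with no listed CHG region had -0.153. The difference was larger where fewer cytosines were tested, and the members held fewer cytosines, so the same description is given by number of cytosines. With 5 to 9 cytosines the median difference was -0.230 over 5563 members and -0.188 over 823 CG and CHG methylated regions. With 40 or more cytosines it was -0.178 over 620 members and -0.141 over 6882 CG and CHG methylated regions. All regions compared are listed losses within the same CG limits, and regions that lost less than 0.1 are in neither set.

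**Figure D2:**
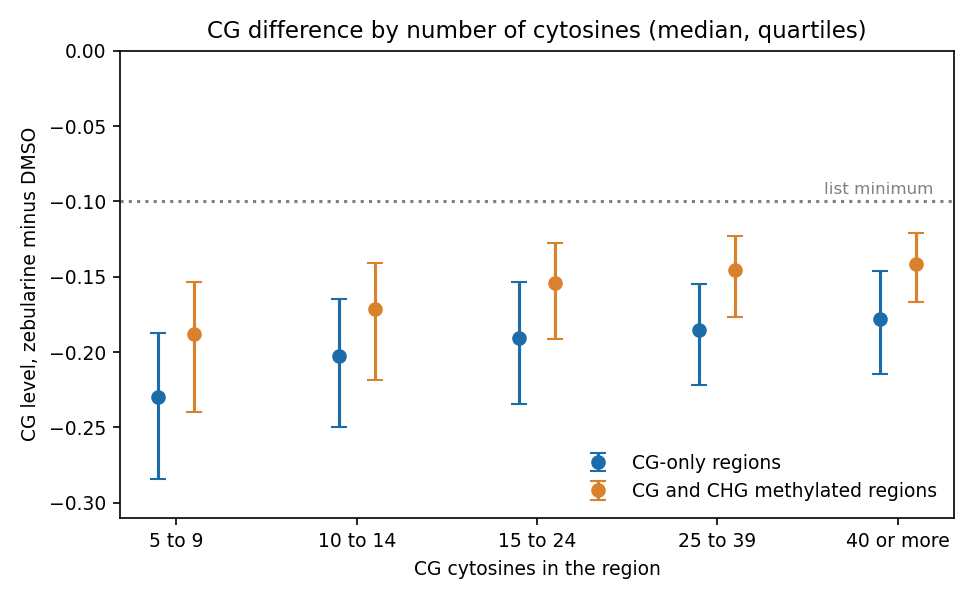
CG difference (zebularine minus DMSO level, y axis) against the number of CG cytosines in the region (x axis) for CG-only regions (blue) and CG and CHG methylated regions (orange). Points are medians and bars quartiles over regions, and the dotted line is the smallest loss that was listed. The CG-only median is the more negative in each class of cytosine number, -0.230 against -0.188 with 5 to 9 cytosines and -0.178 against -0.141 with 40 or more.

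Few members also had a listed loss in the CHG or CHH context. CHG hypo-DMRs overlapped 36 members (0.213%, exact 95% binomial interval 0.149% to 0.294%), against a background of 2.0% of all CG hypo-DMRs. The CHG hypo-DMRs that touched these 36 members had a median level of 0.0333 after zebularine and 0.162 in DMSO. They need not cover the same cytosines as the CHG hyper-DMRs of low CK level by which the members were chosen. For the CG and CHG methylated regions the share was 16.6%, but CHG hypo-DMRs were among the regions that define them. The rule sets a low CHG level in the CK DNA, whereas a CHG hypo-DMR is a loss from the DMSO control. A region with a DMSO level near 0 cannot lose 0.1. A low share therefore goes with the choice of the members if both controls are alike in CHG, which was not tested. CHH hypo-DMRs overlapped 27 members (0.160%), against a background of 0.961% of all CG hypo-DMRs and 1.21% of the CG and CHG methylated regions. Over these 27 members the median CHH level was 0.0372 after zebularine and 0.171 in DMSO. Over all members with a CHH hyper-DMR the median CHH level in CK DNA was 0.0098. Where the DMSO level was as low, a CHH loss of 0.1 could not occur. Whether both controls are alike in CHH was not tested. CG hyper-DMRs overlapped 177 members (1.05%, interval 0.898% to 1.21%), against a background of 1.36%. The share was 0.542% of the CG and CHG methylated regions, 3.47% of the regions of intermediate CHG level and 0.461% of those without a listed CHG region.

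As listed, the members were shorter and poorer in CG sites than the CG and CHG methylated regions. The members' median length was 226 bp with quartiles of 136 and 366 bp, compared with 464 bp with quartiles of 303 and 492 bp in the CG and CHG methylated regions. Listed lengths stop near 500 bp, with 95th percentiles of 490 bp in the members and 500 bp in the CG and CHG methylated regions. Every listed region holds at least 5 cytosines. The lengths and counts are those of listed regions, and whether longer methylated stretches were split was not tested. The members held a median of 12 CG cytosines, compared with 34 in the CG and CHG methylated regions. Per 100 bp the median was 6 CG cytosines in the members and 8.80 in the CG and CHG methylated regions, and the members' median was the lower on 12 of 12 chromosomes. The gap was smaller at equal numbers of cytosines. With 5 to 9 cytosines it was 5.56 per 100 bp in the members and 6.98 in the CG and CHG methylated regions. With 40 or more it was 10.5 in the members and 10.8 in the CG and CHG methylated regions. The count includes only cytosines with at least 3 reads, as the methods give it. The member with the most cytosines lay on chromosome 11 from 25021675 to 25022163, held 89 CG cytosines and had CG levels of 0.8115 after zebularine and 0.945 in DMSO. It touched 1 CHG hyper-DMR of low CK level, but its mean CHG level in CK DNA was 0.174 over the CHG hyper-DMRs it touched, so that it is not free of CHG methylation throughout. The next, with 85 cytosines on chromosome 7 from 16773172 to 16773656, had 0.827 after zebularine and 0.955 in DMSO. It was followed by a member with 80 cytosines on chromosome 1 from 14295353 to 14295851, with 0.810 after zebularine and 0.945 in DMSO. A member with 79 cytosines on chromosome 1 from 25829154 to 25829642 had 0.743 after zebularine and 0.898 in DMSO. The member with 78 cytosines on chromosome 3 from 15455186 to 15455664 had the largest loss of these 5, with 0.733 after zebularine and 0.978 in DMSO. On the 12 chromosomes the member richest in CG held 69 to 89 cytosines, and chromosome 4 had the largest loss among them, from 32870098 to 32870598, with 0.678 after zebularine and 0.927 in DMSO.

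Around the members, listed regions of high CHG or CHH level were scarce, less so for CHH at 2 kb. A listed methylated CG region (a CG hypo-DMR with a DMSO level of at least 0.8) covered 13.6% of the positions 500 bp from the centre of a member and 8.56% of those at 2 kb, compared with 44.5% at 500 bp and 31.2% at 2 kb around the CG and CHG methylated regions. Such regions covered 15.9% of the chromosome length. CHG hyper-DMRs with a CK level under 0.05 covered 49.1% of the positions at 500 bp and 36.8% at 2 kb from members, compared with 1.22% at 500 bp and 6.23% at 2 kb around the CG and CHG methylated regions and with 17.1% of the chromosome length. CHG regions with a control level of at least 0.5 covered 0.396% of the positions at 2 kb from members and 7.33% of those at 2 kb from CG and CHG methylated regions. They covered 2.39% of the chromosome length. Where the CK level was under 0.02, CHH hyper-DMRs lay over 83.3% of the positions at 500 bp and 63.1% at 2 kb from members, compared with 6.13% at 500 bp and 14.7% at 2 kb around the CG and CHG methylated regions and with 31.9% of the chromosome length. Where it was at least 0.05, they lay over 2.28% of the positions at 500 bp, 4.06% at 1 kb and 13.1% at 2 kb from members, compared with 41.3% at 500 bp, 38.6% at 1 kb and 34.96% at 2 kb around the CG and CHG methylated regions and with 28.7% of the chromosome length. Unmethylated CG regions (CG hyper-DMRs with a CK level under 0.05) covered 6.38% of the positions at 2 kb from members, 2.62% of those around the CG and CHG methylated regions and 5.36% of the chromosome length. At 0 bp the CG and CHG values follow from the rule, whereas the flanks were not used by it except where a CHG hyper-DMR reaches out of the member.

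**Figure D3:**
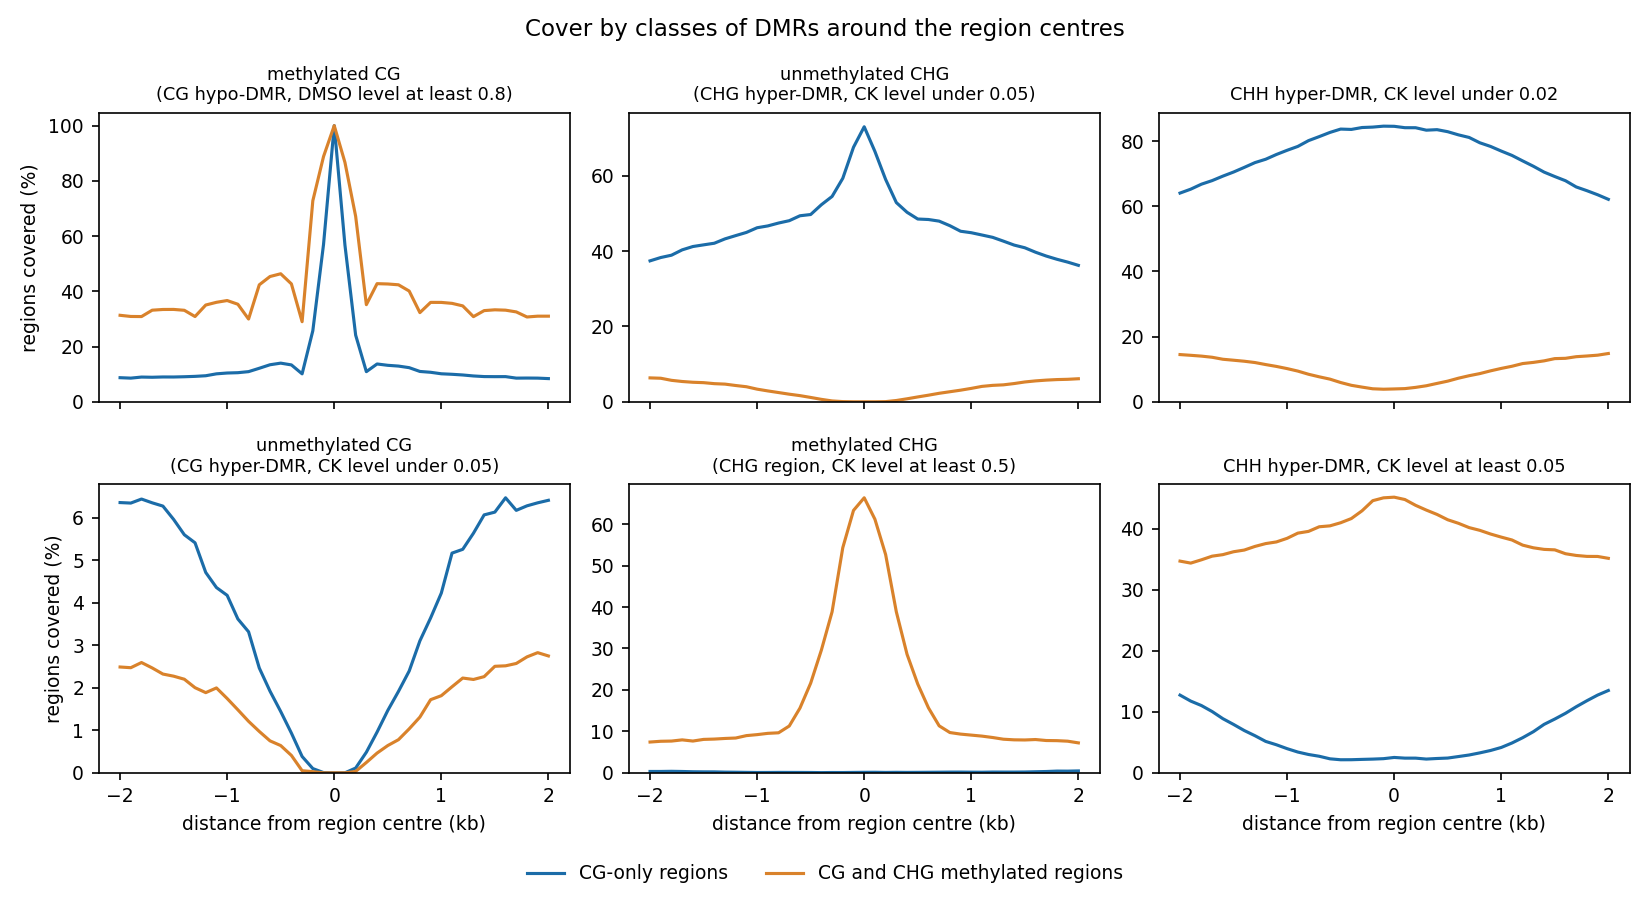
Percent of regions (y axis) whose position at a given distance from the region centre (x axis, kb) lies in a listed region of the class named above each panel, for CG-only regions (blue) and CG and CHG methylated regions (orange). CHH hyper-DMRs of low CK level cover 83.3% of the positions at 500 bp from CG-only centres and 6.13% of those from CG and CHG methylated centres.

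Some members had other members within 500 bp, but most did not. When members with at most 500 bp between them were joined, 6359 members (37.6%) fell into chains of at least 2, while 10561 stood alone. No such share is given for all CG hypo-DMRs, so whether members lie closer together than these was not tested. There were 2046 chains of 2, 669 chains of 3 or more and 63 of 5 or more members, and chains of 5 or more spanned a median of 2407 bp. In the CG and CHG methylated regions 51.5% were in chains, but this order was turned when a shared stretch of at least 50% of the region was required (32.2% of the members and 23.6% of the CG and CHG methylated regions) or a difference of at least 0.2 in every region of both lists (21.6% of 9019 members and 10.98% of 1430 CG and CHG methylated regions). The longest chain held 10 members on chromosome 9 from 4021799 to 4026471, with CG levels of 0.670 to 0.841 after zebularine and 0.948 to 0.995 in DMSO. Its CHG level in CK DNA was 0 to 0.0228 and its CHH level there 0.0052 to 0.0551. A chain of 9 members on chromosome 2 from 13308278 to 13312574 held 207 CG cytosines, with CG levels of 0.712 to 0.866 after zebularine and 0.939 to 0.995 in DMSO. Chains of 7 members lay near the start of chromosome 8, from 37683 to 41095, with 0.646 to 0.867 after zebularine and 0.945 to 0.987 in DMSO, and on chromosome 7 from 27077479 to 27080780, with 0.712 to 0.864 after zebularine and 0.951 to 0.985 in DMSO. In each of these 4 chains every listed CG hypo-DMR within the span was a member. Since listed lengths stop near 500 bp, a chain in either set may be a longer stretch listed in parts, which was not tested.

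The loss differed between neighbours in a chain. In the chain on chromosome 9, the difference ran from -0.107 in the first member, from 4021799 to 4022020 with 0.841 after zebularine and 0.948 in DMSO, to -0.292 in the member from 4024688 to 4024870, with 0.670 after zebularine and 0.962 in DMSO. The next member, from 4025018 to 4025148, had 0.806 after zebularine and 0.964 in DMSO. It held 7 CG cytosines, and the member before it held 10. On chromosome 2, the member from 13308779 to 13308994 with 0.712 after zebularine and 0.984 in DMSO lay beside the member from 13309109 to 13309573 with 0.866 after zebularine and 0.977 in DMSO. Across 3644 pairs of neighbours in a chain, the difference had a Pearson's r of 0.138 and a median absolute difference of 0.0556. For the CHH gain, r was 0.427 over 3636 pairs, and neighbours can share a CHH hyper-DMR. These correlations are over regions of the same libraries and carry no p-value. Read depth is unknown, so how much of the difference between neighbours is counting error was not tested.

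**Figure D4:**
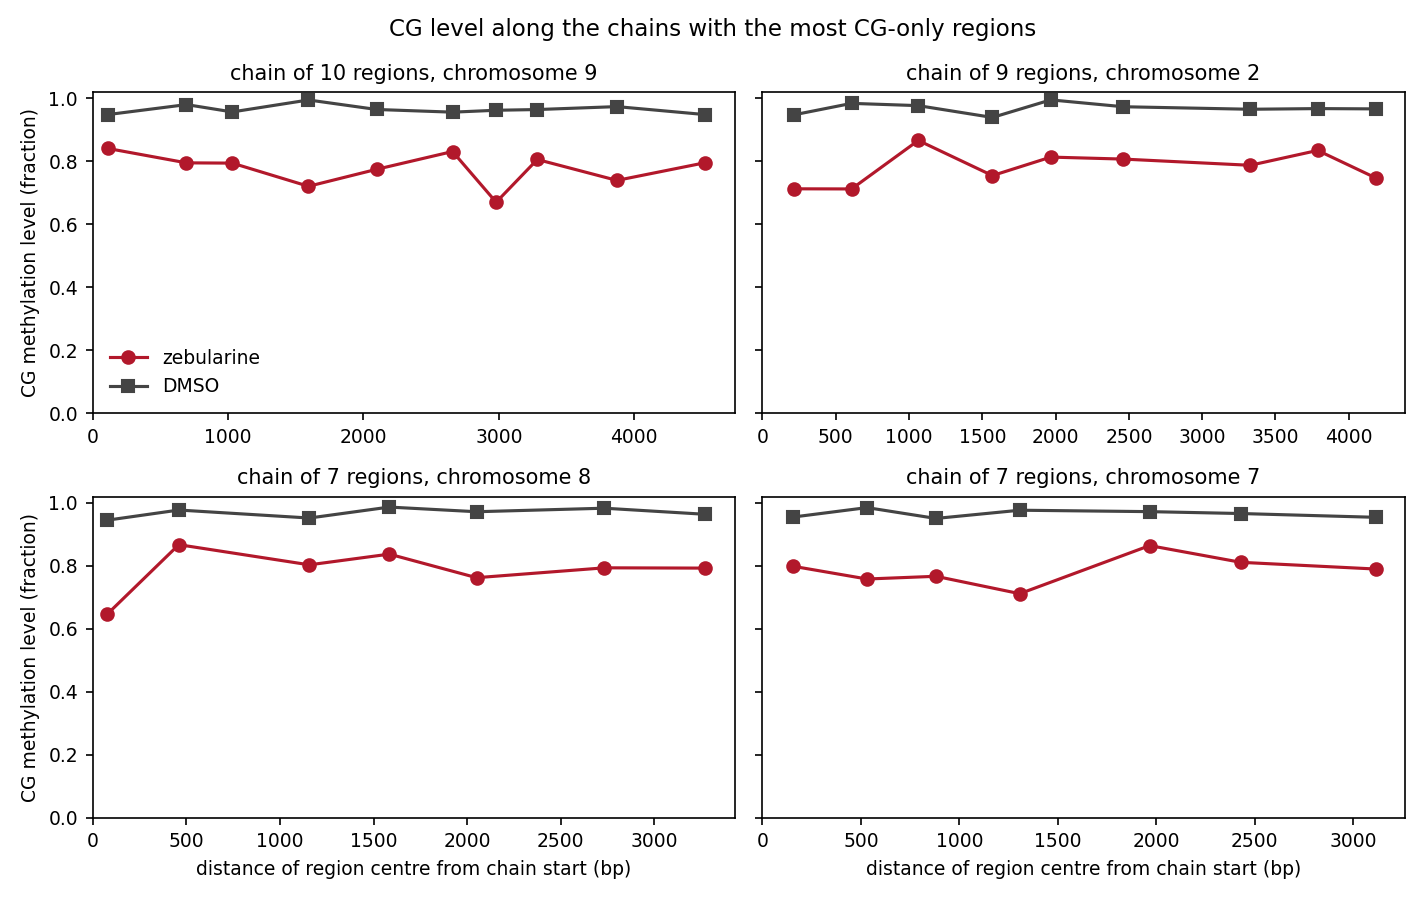
CG methylation level (fraction, y axis) after zebularine (red circles) and in DMSO (grey squares) for each member of the 4 chains with the most members, by the distance of its centre from the chain start (bp, x axis). In the chain of 10 members on chromosome 9 the levels are 0.670 to 0.841 after zebularine and 0.948 to 0.995 in DMSO.

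Members were spread unevenly over the genome and were scarcer where CG hypo-DMRs were dense. Their density was highest on chromosome 2 with 57.0 per Mb and chromosome 3 with 56.8 per Mb and lowest on chromosome 11 with 35.4 per Mb. Members made up 14.4% of the CG hypo-DMRs of chromosome 3 and 6.53% of those of chromosome 11. On chromosomes 1, 2 and 3 they outnumbered the CG and CHG methylated regions, and on the other 9 chromosomes they did not. Bins of 1 Mb held 5 to 110 members with a median of 43 over 368 bins. Across these bins the number of members had a Spearman's rho of -0.709 with that of the CG and CHG methylated regions and of -0.762 with that of the regions without a listed CHG region. This is a description over bins that share the same libraries. In the 74 bins with the fewest CG hypo-DMRs (210 to 321) the median was 61 members and 17.5 CG and CHG methylated regions, whereas in the 74 bins with the most (671 to 1040) it was 24 members and 87 CG and CHG methylated regions. The richest bin lay on chromosome 2 from 1000001 to 2000000, with 110 members and 18 CG and CHG methylated regions, and the neighbouring bins before and after it held 100 and 101 members. On chromosome 3 the bin from 33000001 to 34000000 held 98 members and 12 CG and CHG methylated regions. The poorest bin lay on chromosome 4 from 17000001 to 18000000, with 5 members and 94 CG and CHG methylated regions. On chromosome 5 the bin from 12000001 to 13000000 held 9 members and 154 CG and CHG methylated regions. The 37 bins richest in members held 18.9% of them, 5.19% of the CG and CHG methylated regions and 7.003% of all CG hypo-DMRs.

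**Figure D5:**
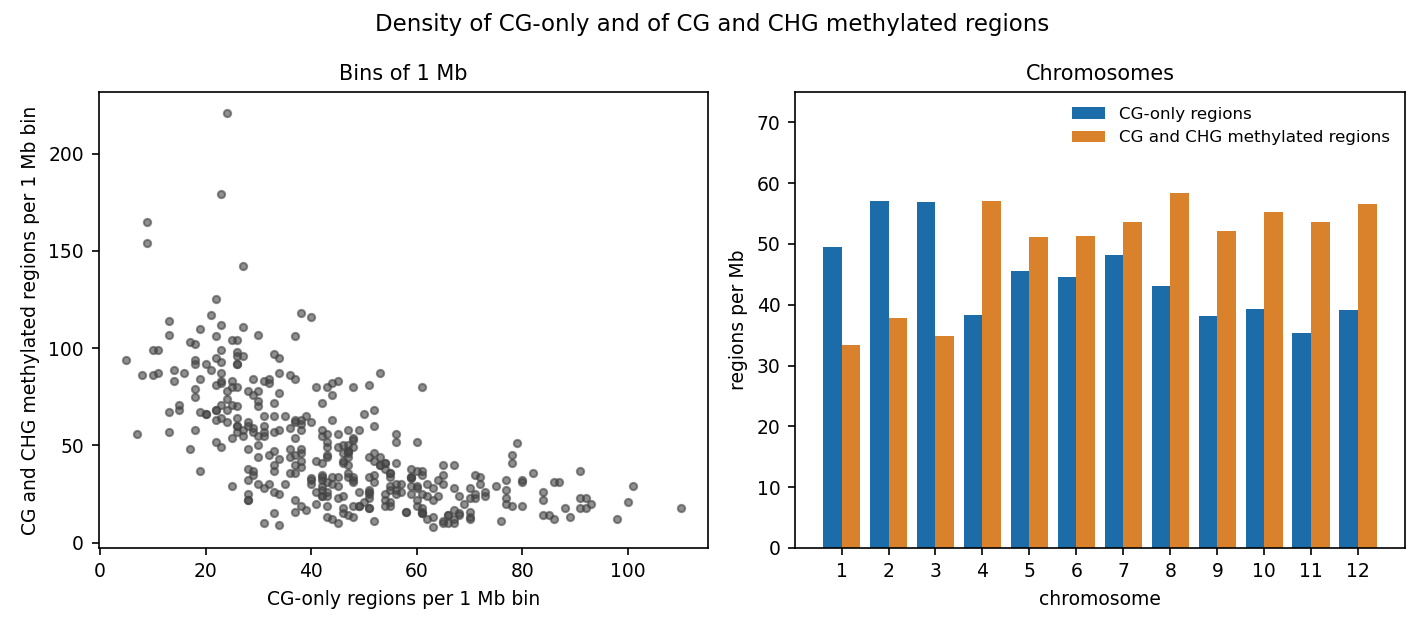
Left, number of CG-only regions (x axis) and of CG and CHG methylated regions (y axis) in each of 368 bins of 1 Mb. Right, regions per Mb on each chromosome for CG-only (blue) and CG and CHG methylated regions (orange). Bins rich in CG-only regions hold few CG and CHG methylated regions (Spearman's rho -0.709), and CG-only regions are the more numerous on chromosomes 1, 2 and 3.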

How the data were processed

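According to the methods, the authors used Fastp for trimming and Bismark for mapping to MSU7.0, kept cytosines with at least 3 reads and called regions with CGmapTools at a p-value under 0.01 and a difference of at least 0.1. Each deposited level is a fraction, the mean over a region's cytosines. The deposited p-value was used only as a filter in an alternative. The deposited t statistics and differences of the authors' comparison were not used. The lists have no header, and treated and control columns were told apart by the direction each list is named for.

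Regions were joined when they shared at least 1 base. Levels over a member are means over the CHG or CHH regions that touch it. Chains join members at most 500 bp apart. The largest region end stood for the chromosome end. Intervals are exact (Clopper-Pearson) over regions, cover counting error only and ignore that neighbours depend on each other. The overlap code was tested on 900 simulated regions, with 0 mismatches. Python 3.11.15, numpy 2.4.6, pandas 2.3.3, scipy 1.17.1 and matplotlib 3.10.9 were used.

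The members, comparison sets and rules were chosen with earlier results of these data known. Regions named are the 4 chains with the most members, the members with the most cytosines over all and per chromosome, those with the largest and smallest CHH gain, and those nearest each limit. The bins and the chain members named within a chain were chosen after their values were seen. Position in genes and sequence content were planned but not analysed here, since they need the annotation and sequence of MSU7.0.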

Additional observations from a re-analysis of the deposited data

How the results depend on the processing

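Over the alternatives, 28 of 92 values stayed within the 95% interval of the main value (for the number of members, within 1.5 times) and 64 moved, none to the other sign. Spearman's rho over bins of 500 kb and 2 Mb had no interval and was counted as moved. Means were set against the interval of the median. Limits on p-value, difference and cytosines were set on all regions of both lists, so they also remove CHG and CHH regions. Leaving aside the numbers of regions, in 80 of 83 comparisons the members stayed on the same side of the CG and CHG methylated regions; the exceptions were the share in chains with an overlap of at least 50% and with a difference of at least 0.2, and the share with a CG hyper-DMR with a difference of at least 0.2. The members, fewer than the 18087 CG and CHG methylated regions in the report, outnumbered them in 4 of 7 alternatives: p-value (8881 and 4798), difference (9019 and 1430), overlap (12814 and 11976) and a CHG limit of 0.1 (18364 and 18048). With a p-value under 0.001 there were 8881 members, a median CG difference of -0.213, a median CHH gain of 0.609, 26.5% in chains and 0.113% with a CHG hypo-DMR. With a difference of at least 0.2 the values were 9019 members, -0.249, 0.593, 21.6% and 0.0222%, and the median CHH level in CK DNA was 0.0096. With at least 10 cytosines they were 10348 members, -0.193, 0.603, 26.5% in chains and a CHH level of 0.01. An overlap of at least 50% gave a CHH level of 0.0095, a CHH gain of 0.601 and 32.2% in chains. A CHG limit of 0.02 gave a CHH level of 0.0094, a CHH gain of 0.601 and 34.1% in chains, and a limit of 0.1 gave a CG difference of -0.2035, a CHH level of 0.0102, a CHH gain of 0.590, 36.6% in chains and 0.332% with a CHG hypo-DMR. Without members that touch a CHG region of higher level, 0 of 16537 members had a CHG hypo-DMR, by construction. Means in place of medians were -0.214 for the CG difference, 0.0133 for the CHH level and 0.591 for the CHH gain. Gaps of up to 200 and 1000 bp put 22.1% and 52.4% of the members in chains. Spearman's rho over bins was -0.625 with 500 kb and -0.788 with 2 Mb. The cause of these shifts was not tested, beyond that stricter limits leave fewer regions. No paired analysis was possible because there is 1 library per condition. Depth is unknown, so its effect on any level could not be assessed.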

Other observations

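A CG hyper-DMR is listed only where CG methylation was at least 0.1 higher after M.CviP I, so the 177 members that touch one are chosen for a lower CG level in CK DNA and do not stand for the others. The CG hyper-DMRs there had a median level of 0.834 in the M.CviP I library and 0.516 in the CK DNA, whereas the members themselves had medians of 0.658 after zebularine and 0.867 in DMSO. In 34 of the 177 the CG level in CK DNA was under 0.2, and in 33 it was at least 0.8. The CG hyper-DMR need not cover the member, so both values may come from neighbouring cytosines.

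Among members, the CG difference had little relation to the CHH values. Over 16890 members Pearson's r of the CG difference was 0.0356 with the CHH level in CK DNA and 0.0297 with the CHH gain, and over all 16920 members it was 0.251 with the number of CG cytosines. The CHG gain and the CHH gain, which come from the same enzyme reaction, had an r of 0.316 over members and of 0.161 over 15425 CG and CHG methylated regions. These values are across regions of the same libraries, which are not independent replicates, and carry no p-value.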
